A study of Homo sapiens with 6 samples.

Results

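The genes described here encode 9 enzymes of the pentose phosphate pathway and of NADPH production: PGLS, PGD, RPIA, RPE, TKT, TALDO1, ME1, IDH1 and IDH2. They were chosen by name, by a rule that uses no measured value but with earlier results of these data known, and all 9 were found among the 60709 genes of the deposited count table. Each of the 9 reached 10 counts in all libraries used, as did 13920 genes of the whole table. The study treated cells of the established neuroblastoma line SH-SY5Y, of human origin, with a fumarate carried on a peptide derived from NRF2, a transcription factor for antioxidant genes. Per the labels, 3 control samples received 10 uL of DMSO per well, and 3 treated samples received the Nrf2-peptide-linked fumarate in water (200 uL of a solution of 2 mg in 600 uL) plus the same DMSO. All cells stood at 80% confluence in 2 mL of medium and were lysed after 5 h.

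Only the control samples could be matched to columns of the table. The columns are headed Sample 1 to Sample 6, and the labels call the controls Sample 4, 5 and 6 and the treated samples Sample 13, 14 and 15. The other 3 columns match no label and were not used, so no response to the peptide is reported. The name control rests on this match of numbers alone. If the headings had been counted afresh, the libraries described could be those of treated cells. The 3 libraries are listed as separate samples, and the labels do not say that they came from separate cultures, so the spread between them may be technical.

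The pentose phosphate pathway runs beside glycolysis in the cytosol. Its oxidative branch takes glucose phosphate to ribulose phosphate and reduces NADP+ to NADPH on the way, and its non-oxidative branch exchanges sugar phosphates reversibly between ribose phosphate and intermediates of glycolysis. NADPH supplies electrons to glutathione reductase, thioredoxin reductase, and the synthesis of fatty acids and cholesterol. Cytosolic malic enzyme (ME1) and the NADP+-dependent isocitrate dehydrogenases (IDH1 in the cytosol and peroxisomes, IDH2 in mitochondria) make NADPH outside the pathway. PGD, TKT, TALDO1 and ME1 are known NRF2 targets in other cells.

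NRF2 binds DNA at antioxidant response elements, and the promoter letters around such an element are shown because the study aimed at this factor. RefSeq promoter windows (GRCh38.p14, 250 bases before to 50 after a gene's start) were found for all 9 genes, with a second window for IDH1, 10 windows in all. They were searched on both strands for TGACNNNGC, the core letters of the element. A match was found for 4 of the 9 genes, PGD, RPE, ME1 and IDH1. One was held by 13.3% of all 35116 RefSeq windows, and by 16.1% of the 27305 genes they belong to. The matches upstream of the RefSeq start are printed 5′ to 3′ along the gene with 10 bases on either side, and the capitals mark the match:
PGD: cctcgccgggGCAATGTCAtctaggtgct
RPE: ggcggacggcTGACAGCGCcccaccccag
ME1: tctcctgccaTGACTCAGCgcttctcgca
IDH1: cccctctcgcTGACTCCGCccatcccacg
With their flanking bases, the printed stretches of PGD and RPE are chr1:10398853-10398881 and chr2:210002477-210002505, both on the plus strand. Those of ME1 and IDH1 are chr6:83431170-83431198 and chr2:208255196-208255224, both on the minus strand. Each of these strands is that of the gene. The PGD match itself reads on the strand opposite to the gene. Its first base along the gene, 10398863, lies 201 bases upstream of the RefSeq start at 10399064. The matches of RPE, ME1 and IDH1 begin 151, 137 and 143 bases upstream of RefSeq starts at 210002638, 83431051 and 208255071. The last is 1 of the 2 starts listed for IDH1. RefSeq and GENCODE place these starts differently. Against the GENCODE 29 gene coordinates given below, the match lies 78 bases upstream of RPE and 117 bases upstream of ME1, but 271 bases inside PGD and 10860 bases inside IDH1. The ME1 letters are also TGACTCAGC, a stricter form that holds the AP-1 letters TGACTCA as well. This form was found in 0.561% of all windows and in no window of the other 8 genes. ME1 had one more TGACNNNGC match, 11 bases past its RefSeq start. A match of letters is a description of the window and not a binding site, and binding was not measured.

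The libraries held 8887854 to 11397407 counts. At 95% confidence a count of 0 allows up to 3 counts, or 0.263 to 0.338 per 1000000 of the unscaled library total. CPM values are counts per 1000000 of the scaled library total. Of 9 noradrenergic neuroblastoma markers 8 had at least 10 counts in every library, among them PHOX2A with 316 ± 26.9 CPM (SD, n = 3) and HAND2 with 914 ± 44.3 CPM. TH, the rate-limiting enzyme of catecholamine synthesis, was at 0 in all 3. Leukocyte markers summed to at most 0.0935 CPM and endothelial markers to at most 0.187 CPM, with CD3E, LYZ and CDH5 at 0. Epithelial markers summed to 2.03 to 2.63 CPM. The 4 fibroblast markers all passed 10 counts and summed to 333 to 373 CPM, most of it COL3A1 (316 ± 21.0 CPM), and their part in any level below was not tested. Control replicate 3 stood apart from the others, with 6.25% of its counts from mitochondrial genes against 4.11% and 3.83% in replicates 1 and 2, and each of the 9 genes is given with its value in that library.

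Together the 9 genes accounted for 0.111% of all counts of replicate 1 (95% Wilson interval 0.109 to 0.113%), for 0.112% of replicate 2 (0.110 to 0.114%) and for 0.106% of replicate 3 (0.104 to 0.108%). These intervals cover counting error only. PGD, TKT and IDH2 were the 3 most counted of them, at 345, 259 and 161 CPM on average. ME1, RPE, PGLS and RPIA were counted least, between 39.7 and 49.6 CPM. The plot of CPM by library shows that the library values of PGD, TKT, IDH2 and RPIA overlapped those of no other of the 9 genes, while those of PGLS, RPE and ME1 overlapped each other, as did those of TALDO1 and IDH1.

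**Figure D1:**
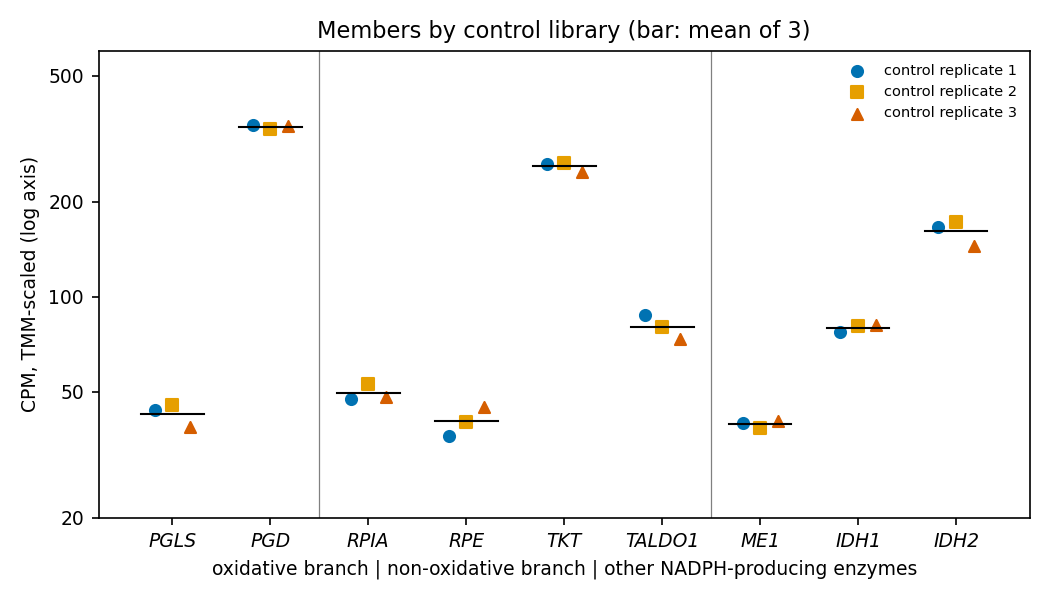
TMM-scaled CPM (log axis) of the 9 genes in control replicates 1, 2 and 3, with a bar at the mean, grouped by branch. PGD lies at 339 to 348 CPM and ME1 at 38.5 to 40.5 CPM, and TALDO1, at 73.4 to 87.4 CPM, spans IDH1, at 77.3 to 81.2 CPM.

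The oxidative branch was represented by PGLS and PGD. PGLS, the lactonase that opens phosphogluconolactone, is ENSG00000130313.7 and lies on chromosome 19 at 17511629 to 17521288 on the plus strand (GRCh38, GENCODE 29). It had 468, 518 and 344 counts in replicates 1, 2 and 3, which gave 43.8, 45.3 and 38.8 CPM and a mean of 42.6 ± 3.38 CPM (SD, n = 3). Replicate 3 was the lowest, and the other libraries lay within counting error of each other.

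PGD, phosphogluconate dehydrogenase, makes NADPH and ribulose phosphate. It is ENSG00000142657.21 on chromosome 1 at 10398592 to 10420144, plus strand. Its 3725, 3874 and 3072 counts gave 348, 339 and 347 CPM, a mean of 345 ± 5.02 CPM (SD, n = 3). The libraries were nearly level, and the coefficient of variation, 1.46%, was no larger than the counting error of a single library, 1.61 to 1.80%. Its processed pseudogene PGDP1 had 3, 2 and 2 counts.

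The non-oxidative branch held 4 genes. RPIA, which interconverts ribulose phosphate and ribose phosphate, is ENSG00000153574.9 on chromosome 2 at 88691644 to 88750935, plus strand. It had 507, 605 and 428 counts, or 47.4, 52.9 and 48.3 CPM, a mean of 49.6 ± 2.96 CPM (SD, n = 3). Replicate 2 was the highest here, and replicates 1 and 3 were within counting error of each other.

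RPE, the epimerase that makes xylulose phosphate, is ENSG00000197713.15 on chromosome 2 at 210002565 to 210022259, plus strand. Its 387, 458 and 397 counts gave 36.2, 40.1 and 44.8 CPM, a mean of 40.4 ± 4.33 CPM (SD, n = 3). It was highest in replicate 3 and lowest in replicate 1, with 10.7% the largest coefficient of variation of the 9. KANSL1L lies on the other strand and overlaps the end of RPE by 837 bases. It had 234, 243 and 268 counts, and whether the counting used strand is not stated, so reads of that stretch may have been missed or assigned to either gene. The retrogene RPEL1, a near copy of RPE, had 2, 0 and 2 counts.

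TKT, the thiamine-dependent transketolase, is ENSG00000163931.16 on chromosome 3 at 53224707 to 53256052, minus strand. It had 2807, 3034 and 2197 counts, or 262, 266 and 248 CPM, a mean of 259 ± 9.30 CPM (SD, n = 3). Replicate 3 was the lowest. The transketolase-like genes were close to the limit of detection, TKTL1 with 1, 1 and 2 counts and TKTL2 with 0 in every library.

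TALDO1, transaldolase, transfers 3-carbon units between sugar phosphates and is ENSG00000177156.11 on chromosome 11 at 747329 to 765024, plus strand. Its 935, 920 and 650 counts gave 87.4, 80.5 and 73.4 CPM, a mean of 80.4 ± 7.02 CPM (SD, n = 3). Each library lay apart from the next by more than 1 counting error, and replicate 3 was the lowest.

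ME1, cytosolic malic enzyme, turns malate into pyruvate and makes NADPH. It is ENSG00000065833.9 on chromosome 6 at 83210389 to 83431071, minus strand, and with 220683 bases it spans the longest stretch of the 9 genes. Its 427, 440 and 359 counts gave 39.9, 38.5 and 40.5 CPM, a mean of 39.7 ± 1.04 CPM (SD, n = 3). The coefficient of variation, 2.63%, was below the counting error of a single library, 4.77 to 5.28%.

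IDH1, the cytosolic and peroxisomal isocitrate dehydrogenase, is ENSG00000138413.14 on chromosome 2 at 208236227 to 208266074, minus strand. It had 827, 927 and 719 counts, or 77.3, 81.1 and 81.2 CPM, a mean of 79.9 ± 2.21 CPM (SD, n = 3). Replicate 1 was the lowest, and the coefficient of variation, 2.76%, was below the counting error of a single library, 3.28 to 3.73%. The antisense gene IDH1-AS1 had 1, 2 and 2 counts.

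IDH2, the mitochondrial enzyme, is ENSG00000182054.10 on chromosome 15 at 90083045 to 90102504, minus strand. Its 1777, 1972 and 1284 counts gave 166, 173 and 145 CPM, a mean of 161 ± 14.4 CPM (SD, n = 3). Replicate 3 was the lowest, and without it the mean was 169.7 CPM.

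Other near copies took few reads. Of 8 pseudogenes named after RPE, PGD or RPIA, 6 were at 0 in every library and none passed 3 counts. PGLS-DT, which overlaps the start of PGLS on the other strand by 261 bases, had 10, 14 and 16 counts.

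Longer transcripts collect more reads, so levels were compared between genes as CPM per 1000 bases of the longest protein-coding transcript in GENCODE 29. On that scale PGD was highest, at 183 ± 2.66 (SD, n = 3), and its level lay above that of 98.3% of the protein-coding genes that reached 10 counts in all 3 libraries. TKT followed with 85.9 ± 3.09, above 95.1% of those genes. IDH2 with 59.9 ± 5.36 and TALDO1 with 59.8 ± 5.21 came next, and their library values overlapped. PGLS had 41.5 ± 3.29, IDH1 32.7 ± 0.905 and RPIA 26.8 ± 1.60. RPE with 12.8 ± 1.37 and ME1 with 11.8 ± 0.310 closed the order, near the middle of the protein-coding genes at 56.3% and 53.7%, and their library values overlapped as well. Neighbours in this order other than these pairs did not overlap. The percentages of protein-coding genes were worked out with this length only. Differences between genes were described over 3 libraries of 1 group and were not tested.

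The order rested partly on the length used, since the isoforms present are unknown. PGD was first of the 9 under each of 4 lengths (longest protein-coding transcript, coding length, longest transcript of any type, union of exons), and its library values overlapped those of no neighbour. ME1 was last under 3 of them and at order 8 under the union of exons, where RPE was last at 11.5 ± 1.23 against 11.8 for ME1, with overlapping values. TKT ranged from order 2 to order 4, because its longest transcript of any type, 7286 bases, is a retained intron. By that length it had 35.5 CPM per 1000 bases, below IDH2 and TALDO1. RPE moved from 12.8 to 59.0 by coding length, since its longest coding sequence has 684 bases against 3165 for the transcript.

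**Figure D2:**
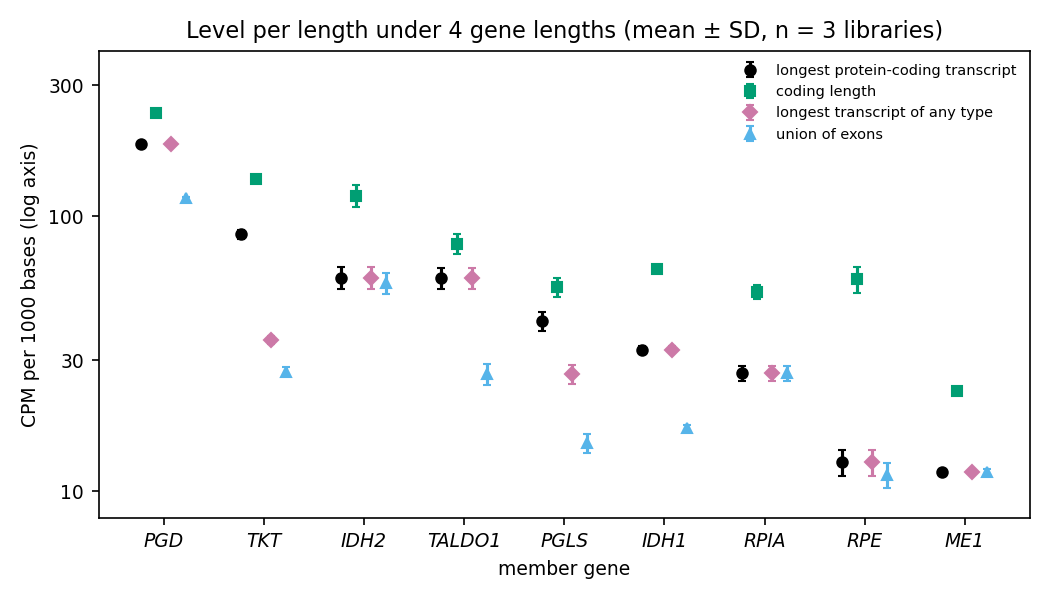
CPM per 1000 bases (log axis) of the 9 genes, mean and SD of 3 control libraries, under 4 definitions of gene length. PGD is highest under all 4, and each of the other 8 changes its place in the order with the length used, RPIA most, from order 4 to order 8.

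Within the pathway, PGD exceeded PGLS per length by a factor of 4.34, 4.08 and 4.87 in replicates 1, 2 and 3 (mean 4.43 ± 0.403, SD, n = 3), and the mean ratio was 4.34 to 7.80 under the 4 lengths. TKT exceeded TALDO1 by 1.34, 1.47 and 1.51 on the same scale. This ratio was not stable to the length used. Its mean of 1.44 fell to 0.596 by the longest transcript of any type, which puts TALDO1 above TKT. The ratio of RPIA to RPE per length, 2.12 ± 0.235, likewise became 0.906 by coding length.

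The mitochondrial isocitrate dehydrogenase exceeded the cytosolic one in every library. IDH2 over IDH1 per length was 1.95, 1.93 and 1.62 in replicates 1, 2 and 3 (mean 1.83 ± 0.185, SD, n = 3), and the mean was 1.85 by coding length and 3.39 by the union of exons. Replicate 3 gave the lowest ratio. IDH1 in turn exceeded ME1 by 2.78 ± 0.118, and by 1.44 with the union of exons.

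Summed per length, PGLS and PGD held 43.7 ± 0.815% (SD, n = 3) of the level of the 9 genes, most of it PGD. The 4 genes of the non-oxidative branch held 36.0 ± 0.397%, and ME1, IDH1 and IDH2 held 20.3 ± 0.480%. These shares varied by less than 2 percentage points between libraries, but their order depended on the length used. By coding length the non-oxidative branch held more, 39.7 ± 0.203%, than PGLS and PGD, 35.4 ± 0.623%. By the other lengths PGLS and PGD held more, 46.7% by the longest transcript of any type, and 42.4% against 29.8% by the union of exons. In raw counts the non-oxidative branch was higher in every library, with 4636, 5017 and 3672 counts against 4193, 4392 and 3416.

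Differences between libraries were set against counting error as the chi-square per degree of freedom of a gene's counts against equal scaled shares, which is near 1 where counting alone acts. A value above 3 was found for 4 of the 9 genes, beside 36.5% of the 13920 genes that reached 10 counts in all 3 libraries. IDH2 had the highest, 12.4, followed by TALDO1 with 5.91, RPE with 4.51 and TKT with 3.20. PGLS had 2.57 and RPIA 1.94. PGD with 0.801, IDH1 with 0.640 and ME1 with 0.287 varied no more than counting allows. The median coefficient of variation was 5.98% over the 9 genes and 8.69% over all 13920, of which many have fewer counts.

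**Figure D3:**
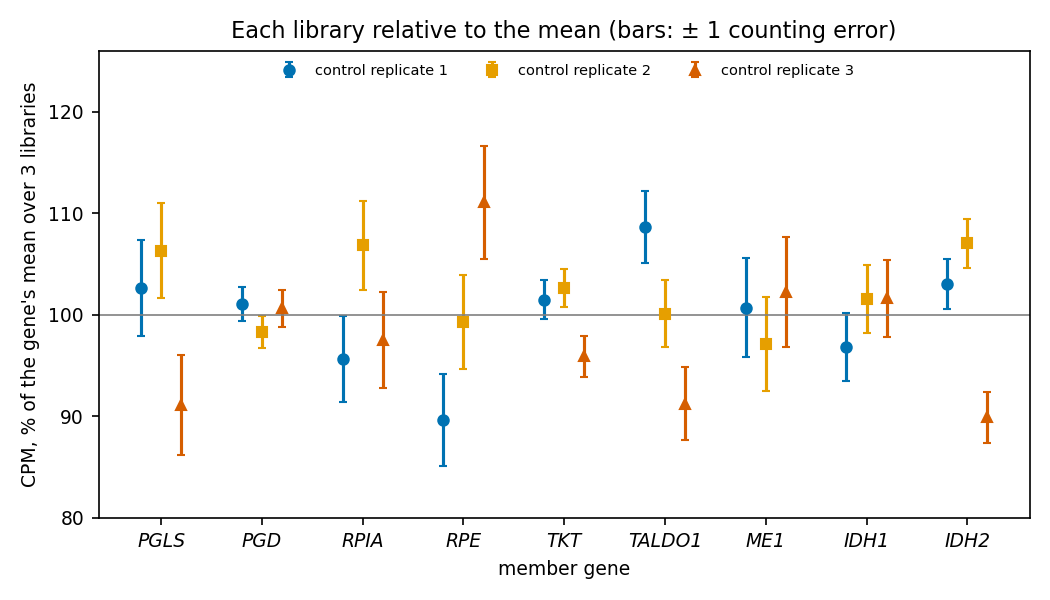
CPM of each gene in each control library as a percentage of the gene's mean, with bars of 1 counting error on either side. Replicate 3 lies at 89.9% for IDH2 and 111% for RPE, while the bars of PGD, ME1 and IDH1 reach or nearly reach the mean in all 3 libraries.

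Much of this spread was between replicate 3 and the others. Without it the chi-square per degree of freedom of IDH2 was 1.34 and that of TKT 0.194, and 2 genes were above 3, RPIA with 3.37 and TALDO1 with 3.15. With fewer libraries this cut is not like for like with the same cut over all libraries. The share of all genes above it without replicate 3 is not given. Replicate 3 was the lowest library for 4 genes (PGLS, TKT, TALDO1 and IDH2), beside 41.8% of all genes. It was the highest for 3 (RPE, ME1 and IDH1), beside 38.6% of all genes. Neither count stands out from the table as a whole.

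The position of replicate 3 moved with the GC content of the transcripts, as it did across all genes. The log2 difference of replicate 3 from the mean of replicates 1 and 2 was 0.23 for RPE, which has the lowest GC content of the 9 at 36.6%. It was 0.05 for ME1 (39.5% GC) and 0.04 for IDH1 (43.1%). RPIA (48.6%) had a difference of -0.05 and PGD (52.9%) one of 0.01. The difference was -0.22 for IDH2 (55.9%), -0.19 for TALDO1 (56.5%), -0.09 for TKT (58.1%) and -0.19 for PGLS, whose GC content of 66.0% was the highest. Across all nuclear genes the median difference went from 0.27 in the lowest of 20 GC bins to -0.25 in the highest. The cause of the GC trend was not tested.

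**Figure D4:**
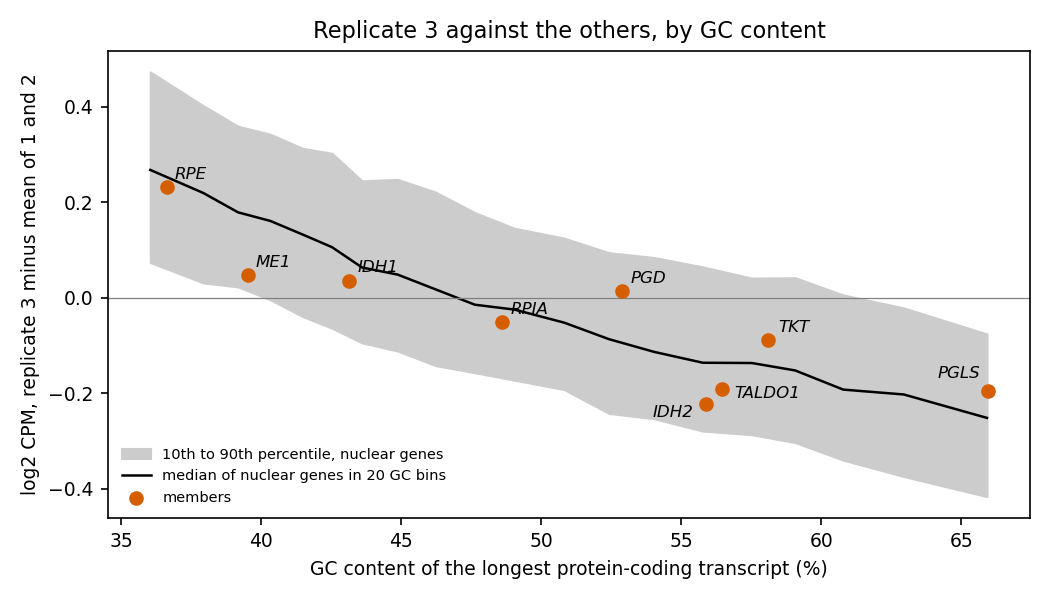
Log2 CPM of replicate 3 minus the mean of replicates 1 and 2 against the GC content (%) of the longest protein-coding transcript. The line and band are the median and the 10th to 90th percentiles of nuclear genes in 20 GC bins, and all 9 genes, from RPE at 0.23 to IDH2 at -0.22, fall within the band.

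With the GC trend of each library removed, the values of RPE were 40.2, 40.3 and 39.9 CPM, and its coefficient of variation fell from 10.7% to 0.481%. The counting error of a single library was 4.67 to 5.08% for RPE, so a coefficient this low does not measure its spread. The coefficient of variation of IDH2 went from 8.95% to 5.00%, with 159, 170 and 155 CPM. Over all genes the median coefficient fell as well, from 8.69% to 6.39%, beside 5.98% to 4.12% over the 9. The share of all genes with a lower coefficient is not given. Among the 9 genes it was lower for 6 and higher for 3. PGD was among the latter, at 337, 337 and 362 CPM and 4.12% against 1.46% before, as were ME1 with 6.89% against 2.63% and RPIA with 6.17% against 5.98%. Replicate 3 was then the lowest library for 5 genes, beside 36.4% of all genes, and the highest for 3, beside 38.0%.

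Other genes of the same routes were read from fixed lists, 23 genes in all, of which 19 had at least 10 counts in every library. Among 9 further pentose phosphate genes, 6 passed this minimum. H6PD, the enzyme that feeds a separate NADPH pool inside the endoplasmic reticulum, had 133, 128 and 112 CPM (125 ± 11.3, SD, n = 3). PRPS1 and PRPS2, which use ribose phosphate for nucleotide synthesis, had 70.8 ± 2.07 and 24.2 ± 1.17 CPM. Per length PRPS1 exceeded PRPS2 by 3.42 ± 0.246. TIGAR, a phosphatase that diverts sugar from glycolysis, had 5.33 ± 1.33 CPM from 41, 73 and 51 counts. The kinases SHPK and RBKS had 4.94 ± 0.954 and 1.80 ± 0.327 CPM.

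Of 9 further enzymes listed as NADPH-producing, 8 passed the minimum. The list was fixed by name and holds ME2, which mainly uses NAD+, so the 8 are not all mainly NADPH producers. NNT, the mitochondrial transhydrogenase, had 98.2, 91.6 and 98.0 CPM (95.9 ± 3.74). In folate metabolism, MTHFD1 of the cytosol had 86.9 ± 6.11 CPM and MTHFD2 of mitochondria 87.1 ± 3.86 CPM, while MTHFD2L had 8.94 ± 1.07 CPM. ALDH1L2, also mitochondrial, had 34.9 ± 0.578 CPM, and its cytosolic counterpart ALDH1L1 had 12, 13 and 13 counts (1.24 ± 0.195 CPM). GLUD1 had 81.8 ± 2.07 CPM.

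The malic enzymes differed in detection. ME2, a mitochondrial malic enzyme that mainly uses NAD+, had 57.5, 63.2 and 68.7 CPM (63.1 ± 5.58), and ME3, the mitochondrial NADP+-dependent form, had 1 count in every library. Per length ME2 stood at 0.570 of ME1 by the longest protein-coding transcript and at 1.56 of it by coding length, so their order was not settled. Of the NADP+-dependent malic enzymes, ME1 passed 10 counts and ME3 did not.

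IDH3A, IDH3B and IDH3G encode the subunits of the NAD+-dependent isocitrate dehydrogenase of the citric acid cycle. They had 38.6 ± 1.81, 94.2 ± 6.00 and 37.1 ± 1.04 CPM (SD, n = 3). Per length IDH2 exceeded IDH3A by a factor of 6.40 ± 0.545, which became 3.38 by coding length and 10.1 by the union of exons. IDH2 had 59.9 CPM per 1000 bases against 61.0 for IDH3B by the longest protein-coding transcript, but 119 against 81.1 by coding length and 57.3 against 36.7 by the union of exons. NADK and NADK2, which make NADP+ from NAD+ in the cytosol and in mitochondria, had 71.5 ± 2.89 and 19.7 ± 0.857 CPM. Per length NADK exceeded NADK2 by 3.59 ± 0.0959.

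Set in 1 order per length with these 23 genes, PGD was first of 32 under all 4 lengths. TKT stood at order 2 by the longest protein-coding transcript and by coding length, at order 5 by the longest transcript of any type and at order 4 by the union of exons. IDH2 stood between order 2 and order 4. IDH3B, with 61.0 ± 3.88 by the longest protein-coding transcript, was the highest of the genes outside the 9 under 3 of the lengths, and MTHFD2 was the highest by coding length, with 82.9.

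**Figure D5:**
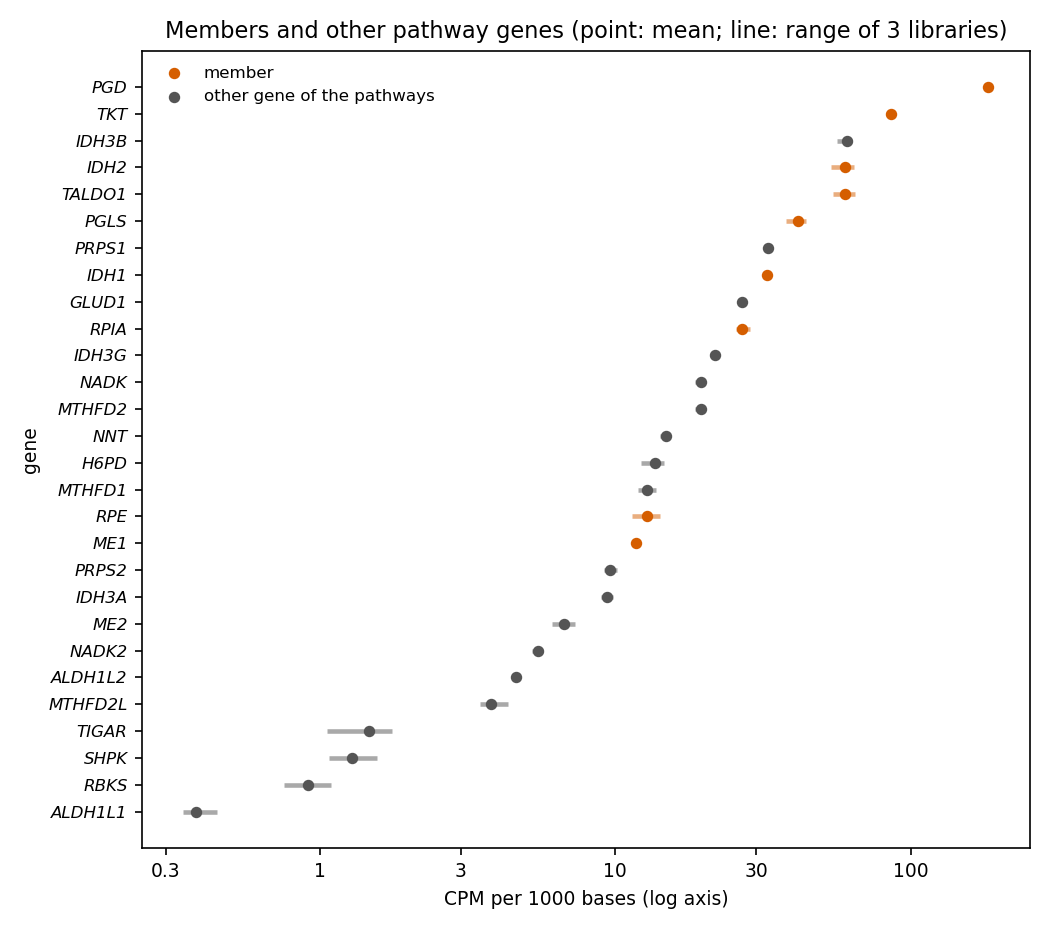
CPM per 1000 bases of the longest protein-coding transcript (log axis) for the 9 genes and the 19 other pathway genes that reached 10 counts in all 3 libraries. Points are means and lines the range of 3 control libraries, from 183 for PGD to 0.379 for ALDH1L1.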

How the data were processed

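Messenger RNA of SH-SY5Y cells was sequenced from stranded libraries, per the labels' protocols. The values the authors deposited are raw read counts of Ensembl genes, per the file headers. The submitters' processing notes name fastp 0.21.1, STAR 2.7.7a, featureCounts and GRCh38. The annotation release, the strand setting and the treatment of reads shared by several genes are not given in the sources used here. Of 60712 rows, 2 name no gene and 1 gene lacks values. Columns of 3 control samples matched the labels, and 3 columns matched none. Counts were scaled to CPM with TMM factors (edgeR 4.0.16, R 4.3.3). Lengths, GC content and coordinates came from GENCODE 29 (GRCh38) and symbols from a table of Ensembl identifiers, which matched 60436 genes. Log2 values used CPM + 0.5. The GC trend was the median deviation in 50 bins over 10290 nuclear genes averaging 100 counts or more. Both statistics were tested on simulated data. All 9 members and every gene of the fixed lists were named, whatever their values. Of the cell type markers, 2 are not reported here. The members and lists were chosen with earlier results of these data known. Protein-coding transcripts replaced the planned longest transcript because that of TKT and PGLS is a retained intron. Tables were made with Python 3.11.15, pandas 2.3.3 and scipy 1.17.1. Alternatives were RLE factors, library size alone, removal of mitochondrial genes or of the GC trend, other lengths and count minimums, and each library left out.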

Additional observations from a re-analysis of the deposited data

How the results depend on the processing

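The planned test of the peptide against control, set out with edgeR, RLE factors, no filter, DESeq2, a replicate block and each replicate left out, was not run. No paired analysis was possible because columns matched the control samples only. The median level of the 9 genes, averaged over libraries, was 77.1 CPM. It was 75.3 to 79.1 CPM when 1 library was left out and 80.9 CPM with mitochondrial genes left out, a smaller total that raises every gene by 4.97%. The median coefficient of variation, 5.98%, was 2.68 to 6.44% when 1 library was left out, lowest without replicate 3. Of 63 CPM values of single genes under 7 alternatives, 59 moved by less than 1 SD, and the other 4 came from leaving out mitochondrial genes. Leaving out 1 of 3 libraries can hardly move their mean by 1 SD. The other scaling factors and the GC removal keep a gene's mean over libraries nearly fixed. The count of 59 therefore says little about how stable the levels are. Of 27 per-length values under other lengths, 16 moved by more than 1 SD. The union of exons was added after the data were seen. At 344 to 518 counts per library, counting error alone was 4.39 to 5.39% for PGLS.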
